A study of Mus musculus with 62 samples.

Results

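Lrg1 encodes leucine-rich alpha-2-glycoprotein 1, a secreted glycoprotein, and it is 1 of 47643 gene symbols measured by RNA-seq in the mouse cerebellum over the development of melanoma cachexia. It was chosen by its own TPM values, that is by its levels across the 12 groups. Those levels and the differences between them are therefore given as a description, without a test. Of the 47643 symbols, 14399 had a mean level of at least 1 TPM (a level scaled for gene length and library total) and entered the tests on other genes. Lrg1 passed that filter, with levels between 0.945 and 25.6 TPM over 62 libraries. The mean of every group was above that minimum, so it did not pass through the CAC groups alone.

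The 62 libraries came from female mice, 2 months old, in 12 groups. The CAC groups had received cachectic melanoma cells, the NCAC groups non-cachectic melanoma cells, and the mock groups a mock injection. Cerebellum was collected 2, 4, 6 and 8 weeks (wk) later. CAC at 8 wk has 7 libraries and each other group 5. The strain is labelled C57BL6/J on the samples but NCI Ath/nude in the series design, so it is not settled which animals were used. The extraction text also refers to LLC cells, and the treatment field names cachectic cells for all samples. Neither was used for grouping, and the groups follow the sample descriptions. The libraries are described as biological replicates, but no label ties one to an animal, so errors cover the spread between libraries. No allele is named. TPM values keep no sequencing depth, so the depth behind each level is unknown.

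LRG1 protein is best known as a product of the liver and of neutrophil granules, and its gene is an acute-phase gene induced by IL-6 through STAT3. In blood vessels the protein binds the co-receptor endoglin and shifts TGF-beta signalling in endothelial cells towards the ALK1 branch, which promotes vessel growth. Endothelium, mainly of venules, is a known site of Lrg1 expression.

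In the GENCODE M21 annotation of GRCm38, Lrg1 (ENSMUSG00000037095.8) lies on the minus strand at chr17:56119678-56122001. Its 1 annotated transcript has 2 exons with 1408 exonic bases, of which 1026 are coding. Plin4, which encodes a lipid droplet coat protein, is the second gene downstream, and its level is described below. The promoters of both are shown because these neighbours were both higher in cachectic animals. Each line gives 250 bases before to 30 bases after the RefSeq start (GRCm38.p6, minus strand, 5′ to 3′). The windows are chr17:56121917-56122196 for Lrg1 and chr17:56109753-56110032 for Plin4, and capitals mark the word TATAAA.
Lrg1: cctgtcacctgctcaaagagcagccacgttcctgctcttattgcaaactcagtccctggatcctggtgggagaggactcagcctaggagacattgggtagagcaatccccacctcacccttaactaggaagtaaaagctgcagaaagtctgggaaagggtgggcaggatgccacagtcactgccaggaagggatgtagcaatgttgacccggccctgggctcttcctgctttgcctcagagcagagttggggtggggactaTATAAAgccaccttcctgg
Plin4: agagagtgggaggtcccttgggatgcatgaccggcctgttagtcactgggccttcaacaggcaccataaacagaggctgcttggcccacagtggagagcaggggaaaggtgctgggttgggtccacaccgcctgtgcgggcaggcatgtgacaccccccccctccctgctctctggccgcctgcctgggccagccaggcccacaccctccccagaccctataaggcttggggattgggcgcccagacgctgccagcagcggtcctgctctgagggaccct

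Both strands of these windows were searched for 5 words that stand for factors linked to inflammation, glucocorticoids or transcription starts. TATAAA occurred once in the Lrg1 window, beginning 12 bases into the RefSeq transcript, and 13.1% of 32851 RefSeq promoters of the same length hold it. GENCODE places the start of Lrg1 further upstream, at position 56122001. The STAT word TTCNNNGAA was in neither window (7.83% of promoters hold it), and neither was the C/EBP word TTGCNNAA (10.4%). A degenerate NF-kB motif (1.54%) and a palindromic glucocorticoid receptor motif (0.435%) were also in neither. Plin4 held none of the 5 words. No match says only that these letters are not in this window.

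The tissue and the samples were checked before the levels were compared. Cerebellar neuron genes were high in all 62 libraries, with 424 to 576 TPM for Pcp2 of Purkinje cells and 827 to 1190 TPM for Gabra6 of granule cells. One library stood apart: CAC at 8 wk replicate 3 had 20400 TPM over the 6 red blood cell markers, against a median of 1260 TPM in its group and at most 1960 TPM in mock at 8 wk. It also had the lowest Lrg1 level of its group and the lowest Plin4 level, at 1.70 TPM. Calls made within groups, and the counts at 8 wk in the receptor, IL-6 and acute-phase lists, are given with and without it. Over all genes, 2990 symbols passed in CAC against mock at 8 wk and 3521 without this library.

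At 2 wk the CAC libraries had 1.65, 2.30, 6.64, 2.45 and 2.57 TPM of Lrg1. The NCAC libraries had 1.35, 1.52, 0.969, 1.77 and 2.00 TPM, and the mock libraries 2.91, 2.72, 2.61, 1.71 and 2.67 TPM. One CAC library, replicate 3, stood above all others of that week, and the remaining CAC libraries lay within the range of mock or just below it. The group means were 3.12 ± 2.00 TPM in CAC, 1.52 ± 0.395 TPM in NCAC and 2.52 ± 0.469 TPM in mock (SD, n = 5 each). The CAC library was the higher one in 8 of 25 pairings with mock libraries and in 23 of 25 pairings with NCAC libraries. The difference between CAC and mock was 0.13 ± 0.254 (SE) on the log2(TPM + 1) scale. Without CAC replicate 3 it turned to -0.12, so its direction at 2 wk rests on 1 library. At that week, every CAC library was above every mock library in 0.417% of tested symbols, and above every NCAC library in 0.833%, which Lrg1 was not among.

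At 4 wk the CAC libraries had 5.15, 10.3, 4.47, 7.28 and 2.81 TPM of Lrg1. The NCAC libraries had 0.945, 2.12, 1.62, 1.39 and 2.22 TPM, and the mock libraries 2.52, 2.06, 0.991, 1.86 and 0.991 TPM. Every CAC library was above every NCAC and mock library, although the lowest CAC value was close to the highest mock value. The means were 6.01 ± 2.90 TPM in CAC, 1.66 ± 0.527 TPM in NCAC and 1.68 ± 0.677 TPM in mock (SD, n = 5 each). The log2 difference was 1.32 ± 0.254 (SE) against NCAC and also 1.32 ± 0.254 (SE) against mock. In 0.583% of tested symbols, every CAC library was above every mock library at 4 wk, and in 0.736% every CAC library was above every NCAC library. The rule for choosing Lrg1 used these contrasts, so nothing is read from its place among them.

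At 6 wk the CAC libraries had 25.6, 9.34, 12.3, 6.30 and 8.47 TPM of Lrg1. The NCAC libraries had 1.55, 1.77, 1.83, 1.92 and 2.54 TPM, and the mock libraries 2.00, 1.27, 1.38, 1.58 and 1.90 TPM. The groups did not overlap, and the CAC libraries themselves spanned the widest range of any group. The means were 12.4 ± 7.69 TPM in CAC, 1.92 ± 0.373 TPM in NCAC and 1.62 ± 0.317 TPM in mock (SD, n = 5 each). The log2 difference was 2.05 ± 0.254 (SE) against NCAC and 2.21 ± 0.254 (SE) against mock. Every CAC library was above every mock library in 2.43% of tested symbols, and above every NCAC library in 5.59%.

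At 8 wk Lrg1 ranged from 6.57 to 22.9 TPM over the 7 CAC libraries, with a median of 17.3 TPM. The NCAC libraries had 1.85, 2.84, 2.63, 2.70 and 1.87 TPM, and the mock libraries 1.82, 1.60, 1.76, 1.90 and 2.80 TPM. The CAC libraries lay clear of the other groups, and 6 of them clustered above 14 TPM while replicate 3 was at 6.57 TPM. The means were 16.8 ± 5.27 TPM in CAC (SD, n = 7), 2.38 ± 0.477 TPM in NCAC and 1.97 ± 0.473 TPM in mock (SD, n = 5 each). The log2 difference was 2.34 ± 0.235 (SE) against NCAC and 2.52 ± 0.235 (SE) against mock. Without replicate 3 these differences were 2.53 and 2.72. Every CAC library was above every mock library in 3.24% of tested symbols, and above every NCAC library in 1.94%.

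**Figure D1:**
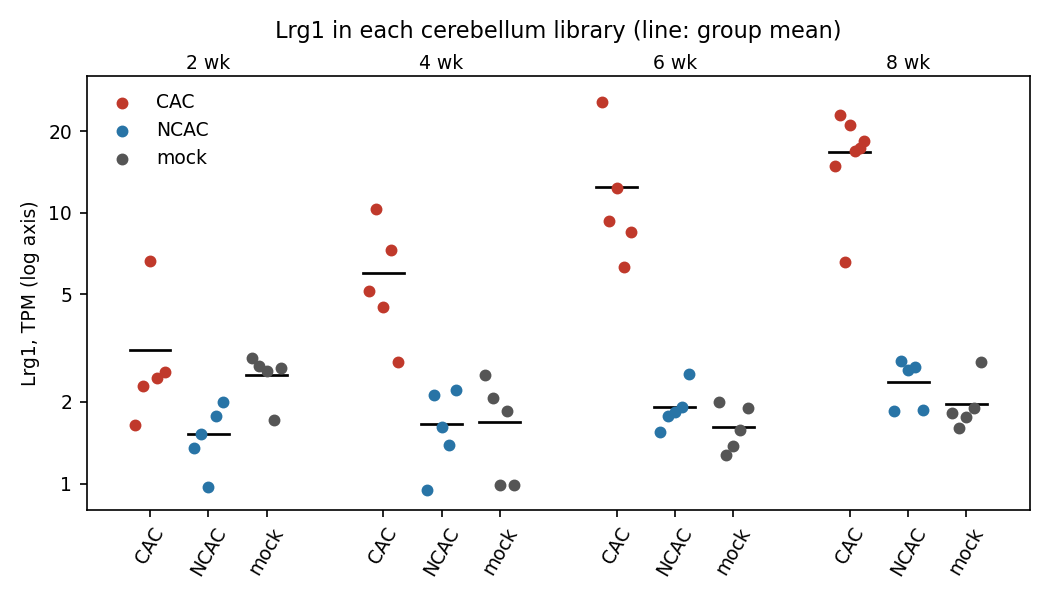
Each point is 1 cerebellum library, placed by treatment and week on the x axis and by its Lrg1 level in TPM on a log y axis, with black lines for group means. CAC overlaps the other groups at 2 wk and lies above both from 4 wk on, at 2.81 to 10.3 TPM at 4 wk and 6.57 to 22.9 TPM at 8 wk.

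In animals given non-cachectic melanoma cells, Lrg1 lay below its level in mock animals at 2 wk and near it at 4, 6 and 8 wk. The NCAC minus mock difference was -0.49, 0.00, 0.16 and 0.18 at 2, 4, 6 and 8 wk, each with an SE of 0.254. That SE pools the spread of all 12 groups, and the CAC groups varied most, with log2 SDs of 0.549 to 0.71. At 2 wk the log2 SD was 0.233 in NCAC and 0.21 in mock. At 2 wk the NCAC library was the higher one in 2 of 25 pairings with mock libraries, whereas at 8 wk it was so in 19 of 25. The difference at 2 wk was larger than 1 pooled SE and than the SD of either of the 2 groups. Mock replicate 4, at 1.71 TPM, was the only mock library within the NCAC range. In NCAC against mock at 2 wk, 0.0139% of tested symbols passed the threshold, all of them higher.

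Within the CAC animals, Lrg1 was 0.78 ± 0.254 (SE) higher at 4 wk than at 2 wk on the log2(TPM + 1) scale, 1.65 ± 0.254 higher at 6 wk and 2.15 ± 0.235 higher at 8 wk. Each week holds different libraries, so this is a sequence of groups and not of animals. Ordered by mean log2 level, the groups ran CAC at 8, 6, 4 and 2 wk, then mock at 2 wk, NCAC at 8 wk, mock at 8 wk, NCAC at 6 and 4 wk, mock at 4 and 6 wk, and NCAC at 2 wk. Of the 11 steps between neighbours in that order, those from CAC at 6 wk to CAC at 4 wk and from CAC at 4 wk to CAC at 2 wk exceeded 1 pooled SD of the neighbours. The ranges of all neighbours overlapped. CAC at 8 wk and CAC at 6 wk differed by 0.493, below their pooled SD of 0.635.

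The level of Lrg1 remained moderate in the tissue as a whole. In CAC at 8 wk its mean TPM exceeded that of 41.7% of tested symbols, compared with 10.4% in NCAC at 8 wk and 7.76% in mock at 8 wk. In bulk tissue, a change in the number of cells that express a gene and a change in RNA per cell cannot be told apart.

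**Figure D2:**
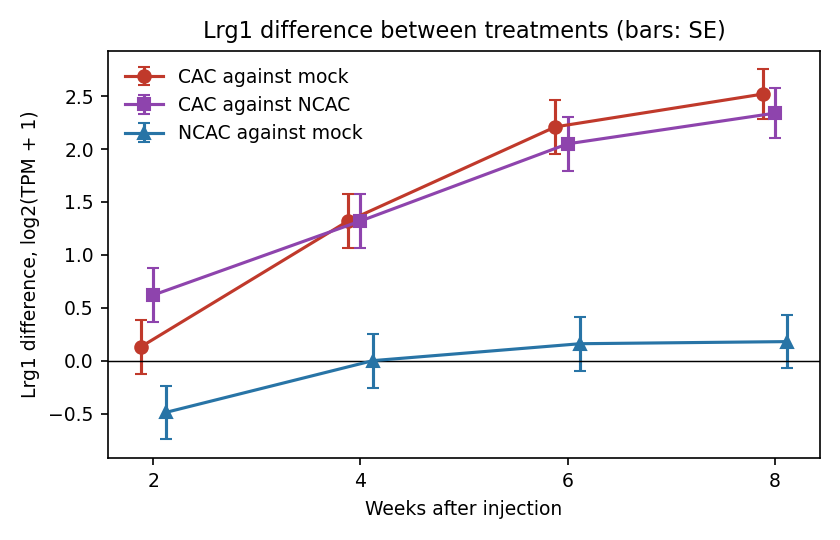
Lrg1 differences in log2(TPM + 1), on the y axis, are plotted by week after injection for CAC minus mock, CAC minus NCAC and NCAC minus mock, with SE as bars. CAC minus mock is 0.13 at 2 wk and 2.52 at 8 wk, whereas NCAC minus mock lies between -0.49 and 0.18.

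The timing of Lrg1 is given beside that of the 55 other genes that passed the threshold and differed at least 2-fold between CAC and mock at 8 wk. At 2, 4 and 6 wk Lrg1 had 5.17%, 52.5% and 87.5% of its 8 wk log2 difference. The medians over the 55 genes were 7.66%, 28.6% and 63.6%. Lrg1 was chosen for its levels across these groups, so nothing is read from its place among them. Gkn3, a gastrokine gene known in mice as an arterial endothelial marker, had 76% of its 8 wk difference at 4 wk and 99.1% at 6 wk. Its difference was in the opposite direction to that of Lrg1, with 2.62 ± 2.40 TPM in CAC (SD, n = 7) and 8.59 ± 2.17 TPM in mock (SD, n = 5) at 8 wk. Each share divides by the gene's own 8 wk difference, and all are descriptions.

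**Figure D3:**
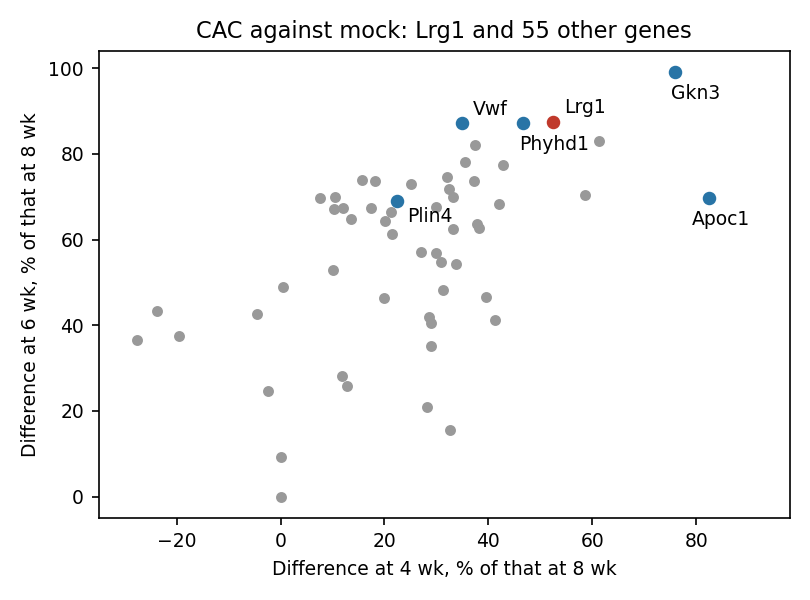
Each point is Lrg1 or 1 of the 55 other genes that passed the test and were at least 2-fold different between CAC and mock at 8 wk, with the log2 difference at 4 wk (x axis) and at 6 wk (y axis) as a percentage of that at 8 wk. Lrg1 lies at 52.5% and 87.5%, with Gkn3, at 76% and 99.1%, further along on both axes.

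Over the 12 group means of log2(TPM + 1), the gene most like Lrg1 was Phyhd1, which encodes a dioxygenase-like enzyme, with a Pearson r of 0.993 and a Spearman rho of 0.867. Nbl1, a secreted BMP antagonist, followed with r = 0.988, then Heph, the membrane ferroxidase hephaestin, with 0.985. Tns2 of focal adhesions, the collagen gene Col5a3 and Ntrk2, the receptor of BDNF, had r of 0.981, 0.976 and 0.975. The genes least like Lrg1 were the growth factor gene Ptn (-0.985), the collagen gene Col9a2 (-0.978) and Taf10, a subunit of TFIID (-0.975). The CAC groups at 6 and 8 wk have by far the highest Lrg1 means among the 12 points, and each point is a mean of 5 or 7 libraries.

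Phyhd1 ranged from 12.1 to 66.0 TPM in CAC at 8 wk and from 9.92 to 12.6 TPM in mock at 8 wk. All CAC libraries but replicate 3 exceeded every mock library. The log2 difference was 1.70 ± 0.256 (SE). Nbl1 had 89.3 ± 17.7 TPM in CAC (SD, n = 7) and 47.7 ± 4.80 TPM in mock (SD, n = 5), a log2 difference of 0.87. Ptn had 101 ± 22.3 TPM in CAC and 142 ± 11.1 TPM in mock, a log2 difference of -0.51. These genes were picked for their likeness to Lrg1 over the group means, so their differences between groups are descriptions, with no test.

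The choice of Lrg1 rested on differences between groups. Its variation among libraries of the same group was not used, so it was asked which genes followed Lrg1 within groups. Each gene was fitted in limma with 12 group terms and the Lrg1 level of the same library, and the slope on Lrg1 was tested. Of 14398 other genes, 371 (2.58%) passed an adjusted p of 0.05, with 205 (1.42%) rising with Lrg1 and 166 (1.15%) falling. At an unadjusted p under 0.05 it was 16.7%. The count of 371 rests heavily on CAC at 8 wk replicate 3: without it, 7 genes passed, and 10.3% had an unadjusted p under 0.05. Most of the variation also came from cachectic animals, since the 4 CAC groups held 15.9%, 16.8%, 23.7% and 21.2% of the within-group sum of squares of Lrg1 at 2, 4, 6 and 8 wk. Without CAC at 4, 6 and 8 wk, 0 genes passed in limma.

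Vwf had the smallest p. It encodes von Willebrand factor, the clotting glycoprotein stored by endothelial cells. Its log2 level rose by 0.46 ± 0.0602 (SE) per log2 unit of Lrg1, with an adjusted p of 8.42e-06. At 4 wk, Vwf was at 5.94, 10.9, 5.13, 9.76 and 4.96 TPM in CAC replicates 1 to 5. Replicates 2 and 4, the highest in Lrg1, were also the highest in Vwf, and replicate 5 was the lowest in both. At 2 wk, CAC replicate 3 had the highest Vwf level of its group, at 7.10 TPM, as it had for Lrg1. Mock replicate 5 at 8 wk was likewise the highest of its group in both, with 8.20 TPM of Vwf and 2.80 TPM of Lrg1. Other NCAC and mock groups went both ways. In NCAC at 2 wk, replicate 3 was the lowest in both. In NCAC at 4 wk, replicate 5, the highest in Lrg1, had a log2 Vwf deviation of -0.1824 from its group mean. Replicate 1, the lowest in Lrg1 there, had 0.0965. In mock at 2 wk, replicate 1, the highest in Lrg1, had a Vwf deviation of -0.0902. The slope was between 0.43 and 0.475 with each library left out in turn, with adjusted p from 1.78e-06 to 0.000131, and it was 0.471 without CAC at 8 wk replicate 3. Within the groups other than CAC at 4, 6 and 8 wk it was 0.318, with an adjusted p of 0.657.

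Cp followed with a slope of 0.32 ± 0.0488 (SE) and an adjusted p of 0.000163. It encodes ceruloplasmin, a copper-carrying ferroxidase and acute-phase protein. CAC replicates 1 to 5 at 4 wk had 7.65, 12.9, 7.58, 11.6 and 7.56 TPM of Cp, again with replicates 2 and 4 highest and replicate 5 lowest. Its slope was 0.293 without CAC at 8 wk replicate 3 (adjusted p = 0.00698) and 0.187 without CAC at 4, 6 and 8 wk (adjusted p = 0.676). When the Lrg1 deviations were divided by the SD of their own group, Vwf and Cp were the 2 genes that still passed, with adjusted p of 0.0235 and 0.0404.

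**Figure D4:**
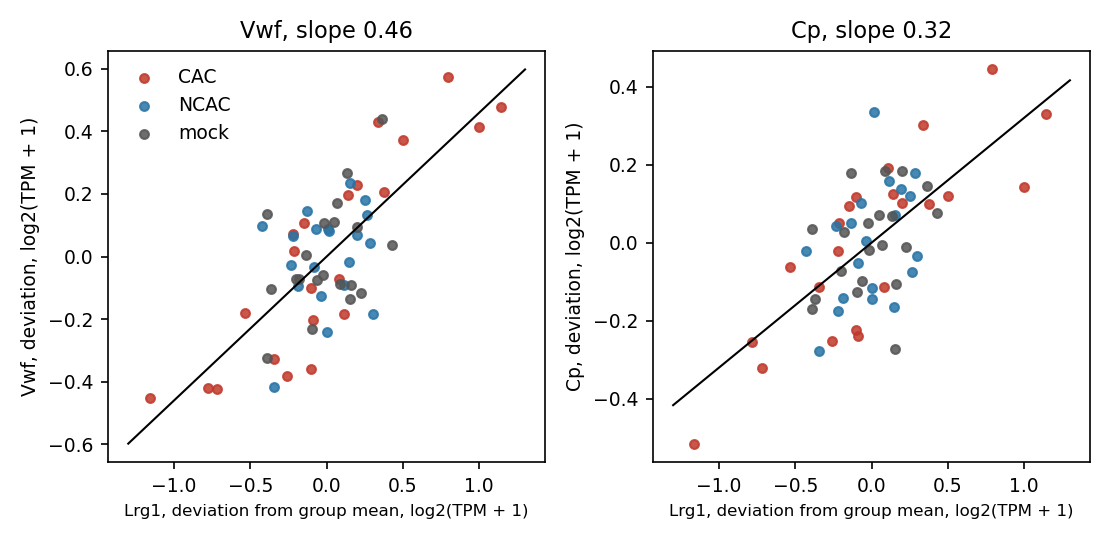
Each point is 1 library, with the deviation of its Lrg1 level from its group mean on the x axis and that of Vwf (left) or Cp (right) on the y axis, both in log2(TPM + 1). Lines show the fitted slopes of 0.46 and 0.32, and the CAC libraries extend furthest along them.

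Next by p came 4 genes. The lipid carrier gene Apod had a slope of 0.43 (adjusted p = 0.000977), Fam213a, a peroxiredoxin-like gene, 0.21 (0.000977), and the transglutaminase gene Tgm2 0.35 (0.00131). Gkn3 fell with Lrg1, with a slope of -0.86 (adjusted p = 0.00154). Without CAC at 8 wk replicate 3, Tgm2 stayed past the threshold (adjusted p = 0.0118). The slopes were then 0.337 for Apod (adjusted p = 0.052), 0.146 for Fam213a (adjusted p = 0.0808) and -0.773 for Gkn3 (adjusted p = 0.0503). Members of the lists were also among the 7 that passed without that library: Ch25h with a slope of 0.573 (adjusted p = 0.0118) and the iron-binding acute-phase gene Lcn2 with 0.516 (adjusted p = 0.0299). With all libraries Lcn2 did not pass, at 0.22 and an adjusted p of 0.392. Replicate 3 combined the lowest Lrg1 level of CAC at 8 wk with the highest Lcn2 level, 12.9 TPM.

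The known receptors of the LRG1 protein and the TGF-beta family were taken next. In CAC against mock at 8 wk, 20.8% of all tested symbols passed the threshold (2990 of 14399), with 13.4% higher and 7.34% lower. At 8 wk, of 30 listed receptor and pathway genes, 27 were tested, 5 were higher and 2 lower, and the median log2 difference was 0.066, beside 0.021 over all tested symbols. The share that passed was near that of all symbols. The ligand genes Gdf2 and Bmp10, which signal through ALK1, were under 1 TPM in every library.

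Endoglin, the co-receptor that LRG1 binds, was lower in CAC. Eng had 16.6 ± 3.24 TPM in CAC (SD, n = 7) and 20 ± 0.941 TPM in mock (SD, n = 5), a log2 difference of -0.27 ± 0.0978 (SE) and an adjusted p of 0.0384. That call held in 10 of 20 alternative settings, and the adjusted p reached 0.115 in a fit of the compared groups alone. It was lost without mock replicates 1, 2, 4 or 5 and without CAC replicates 1, 2, 4 or 6, with an adjusted p of at most 0.105. The type I receptors gave 12.2 ± 2.30 TPM in CAC and 10.6 ± 1.85 TPM in mock for Acvrl1, which encodes ALK1 (adjusted p = 0.177), and 9.72 ± 0.58 TPM in CAC and 9.74 ± 0.975 TPM in mock for Tgfbr1 (adjusted p = 0.997). Tgfbr2, the type II receptor, had 11 ± 0.882 TPM in CAC and 11.1 ± 0.628 TPM in mock, with a log2 difference of -0.01 ± 0.0907 (SE).

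Among the intracellular mediators, Smad9, of the BMP branch, was 0.35 ± 0.0648 (SE) higher in CAC on the log2 scale (adjusted p = 0.000104). Smad4, the common mediator, was 0.18 ± 0.0366 higher (adjusted p = 0.000334), and the ligand gene Tgfb3 was 0.38 ± 0.0869 higher (adjusted p = 0.00118). Smad9 also followed Lrg1 within groups, with a slope of 0.16 ± 0.0311 (adjusted p = 0.00457). Without CAC at 8 wk replicate 3 it was 0.144, with an adjusted p of 0.0965. Within groups, 2 of the 27 tested members rose with Lrg1 and 0 fell in limma, with 7 at an unadjusted p under 0.05, beside 16.7% of all other genes. Without that library 0 passed in limma, with 5 at an unadjusted p under 0.05, beside 10.3% of all other genes. Eng, Acvrl1, Tgfbr1 and Tgfbr2 did not pass: the slopes were 0.01 for Eng, 0.08 for Acvrl1, 0.05 for Tgfbr1 and 0.08 for Tgfbr2, with adjusted p of 0.949, 0.474, 0.521 and 0.456.

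Some genes of IL-6 family and STAT3 signalling, a pathway known to induce Lrg1, passed the test in CAC against mock at 6 and 8 wk. At 8 wk, 6 of 19 tested members were higher and 0 lower, with a median log2 difference of 0.167. Over all tested symbols, 13.4% were higher and 7.34% lower. Socs3, the feedback inhibitor induced by STAT3, had 3.62 ± 0.629 TPM in CAC (SD, n = 7) and 1.62 ± 0.433 TPM in mock (SD, n = 5), a log2 difference of 0.82 ± 0.119 (SE) with an adjusted p of 2.8e-06. The groups did not overlap, with a lowest CAC value of 2.87 TPM and a highest mock value of 2.31 TPM. The oncostatin M receptor gene Osmr had 2.41 ± 0.368 TPM in CAC and 1.18 ± 0.0852 TPM in mock, a difference of 0.64 (adjusted p = 3.89e-05). Stat3 itself differed less, with 21.4 ± 1.5 TPM in CAC and 18.2 ± 0.649 TPM in mock, a difference of 0.22 (adjusted p = 0.000609). Cebpd, a transcription factor of the acute-phase response, was 1.73 ± 0.332 higher (adjusted p = 0.000172). The shared receptor subunit gene Il6st had 48.0 ± 4.10 TPM in CAC and 47.8 ± 0.917 TPM in mock, with an adjusted p of 0.988. The cytokine genes Il6, Lif and Osm were under 1 TPM in every library, with a highest Il6 level of 0.153 TPM. With a minimum mean of 5 TPM, 3 members were higher instead of 6.

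At 4 wk, when the Lrg1 groups already did not overlap, 0.00694% of symbols passed the threshold in CAC against mock. That is 1 of 14399, Lrg1 itself, from which nothing is read because the contrast entered its choice. Of the 14398 other genes, 0 passed in limma and 7.97% had an unadjusted p under 0.05. Socs3 was then at 2.07 ± 0.729 TPM in CAC and 1.19 ± 0.122 TPM in mock (SD, n = 5 each), with an adjusted p of 0.399. Osmr was at 1.74 ± 0.823 TPM in CAC and 0.932 ± 0.151 TPM in mock, with an adjusted p of 0.361. In CAC replicates 1 to 5, Socs3 had 1.74, 3.16, 1.55, 2.46 and 1.44 TPM, so that the libraries highest in Lrg1 were again highest. At an unadjusted p under 0.05, 4 of 19 members passed in limma, beside that 7.97%. At 6 wk 1.72% of tested symbols passed (1.41% higher, 0.313% lower), and 2 of 19 members were higher, Socs3 (adjusted p = 0.011) and Osmr (adjusted p = 0.00322). Within groups, 4 of 19 members rose with Lrg1, beside 1.42% of all other genes. The slopes were 0.25 for both Socs3 (adjusted p = 0.0169) and Osmr (adjusted p = 0.01) and 0.09 for Stat3 (adjusted p = 0.0396). Without CAC at 8 wk replicate 3 the slopes were 0.258 for Socs3 (adjusted p = 0.125), 0.266 for Osmr (adjusted p = 0.0754) and 0.0843 for Stat3 (adjusted p = 0.224). Without that library 0 of 19 members passed in limma. At an unadjusted p under 0.05 there were 5 without it, beside 10.3% of all other genes, and 6 with it, beside 16.7%.

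Of the IL-1, TNF and NF-kB list, 3 of 13 tested members were higher in CAC at 8 wk and 1 was lower, with a median of 0.063. Over all tested symbols, 13.4% were higher and 7.34% lower. Il1r1, the IL-1 receptor, had 7.47 ± 1.86 TPM in CAC (SD, n = 7) and 3.66 ± 0.667 TPM in mock (SD, n = 5), a log2 difference of 0.85 (adjusted p = 1.33e-05). It followed Lrg1 within groups with a slope of 0.32 (adjusted p = 0.00593), or 0.334 with an adjusted p of 0.052 without CAC at 8 wk replicate 3. Nfkbia, the NF-kB inhibitor, had 62 ± 7.56 TPM in CAC and 37.7 ± 2.63 TPM in mock (adjusted p = 0.000237), and its slope on Lrg1 was 0.10 with an adjusted p of 0.578.

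The acute-phase list, to which Lrg1 was not added, held 25 genes, of which 9 were tested. Of the 9, the metallothionein genes Mt1 and Mt2 are also in the glucocorticoid list described below. In CAC at 8 wk 7 of the 9 were higher than in mock and 0 lower, with a median of 0.908. Over all tested symbols, 13.4% were higher and 7.34% lower. Lcn2 had 5.54 ± 3.58 TPM in CAC (SD, n = 7) and 0.474 ± 0.316 TPM in mock (SD, n = 5), a log2 difference of 2.01 ± 0.224 (SE) with an adjusted p of 1.35e-08. Ch25h, an enzyme that makes 25-hydroxycholesterol and is not itself an acute-phase protein, had 4.72 ± 1.53 TPM in CAC and 0.485 ± 0.313 TPM in mock (adjusted p = 8.83e-09). Both genes were under 1 TPM in mock and entered the tests through groups where they were higher, so little is read from these p-values. Each passed in 19 of 19 alternative settings, the fit without a filter among them. At 6 wk 6 of 9 were higher, beside 1.41% of all tested symbols, and 2 of 9 without CAC replicate 1. Within groups 6 of 9 rose with Lrg1, beside 1.42% of all other genes. Without CAC at 8 wk replicate 3 it was 3 of 9, Ch25h, Cp and Lcn2. Members that passed the filter through CAC had to be high there, so these shares cannot stand for the whole list. Of the 25 genes, 12 were under 1 TPM in every library, among them Hp, Orm1, Saa1 and the fibrinogen genes, which the liver makes in quantity.

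Without CAC replicate 3, the counts higher at 8 wk were 6 for the receptor list, 7 for the IL-6 list and 8 for the acute-phase list. At 6 wk all counts depended on the fit: with the compared groups alone 0 of all symbols passed in limma, beside 2297 at an unadjusted p under 0.05 with all groups.

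Against NCAC, 11.8% of tested symbols passed in CAC at 8 wk (7.76% higher, 4.01% lower), and 9.45% at 6 wk (7.47% higher, 1.99% lower). At 8 wk 8 of 19 IL-6 and STAT3 members were higher in CAC than in NCAC, as were 7 of 9 acute-phase members, 8 of 17 endothelial markers and 6 of 27 receptor and TGF-beta family genes, and in these lists 0 were lower in limma. Socs3 had 3.62 ± 0.629 TPM in CAC (SD, n = 7) and 1.69 ± 0.276 TPM in NCAC (SD, n = 5), with an adjusted p of 1.38e-05. Vwf had 14.2 ± 2.93 TPM in CAC and 5.19 ± 0.293 TPM in NCAC, with an adjusted p of 5.31e-08. Eng had 16.6 ± 3.24 TPM in CAC and 18 ± 1.17 TPM in NCAC, with an adjusted p of 0.442. At 6 wk 4 of 19 IL-6 and STAT3 members, 6 of 9 acute-phase members and 3 of 17 endothelial markers were higher in CAC.

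Genes that respond to glucocorticoids were also listed, with Mt1, Mt2 and Plin4 among them. At 8 wk 17 of 18 tested members were higher in CAC than in mock and 0 lower, with a median of 1.419. Over all tested symbols, 13.4% were higher and 7.34% lower. Within groups 7 of 18 rose with Lrg1, beside 1.42% of all other genes. Without CAC at 8 wk replicate 3, 0 of 18 passed in limma, with 10 at an unadjusted p under 0.05, beside 10.3% of all other genes. All 18 slopes were positive with and without that library, with medians of 0.442 and 0.358. In CAC at 4 wk, the mean log2(TPM + 1) of that list was 6.18 and 5.75 in replicates 2 and 4, the highest in Lrg1, and 4.34 in replicate 5, the lowest. In CAC at 6 wk, replicate 1 was highest in both (list mean 6.17) and replicate 4 lowest in both (list mean 5.02). In CAC at 8 wk replicate 3 the list mean was 4.91, while replicate 1, at 14.8 TPM of Lrg1, had the highest of its group, 6.39. The NCAC and mock groups were mixed. The library highest in Lrg1 had the lowest list mean in NCAC at 4 wk (replicate 5, 4.25) and NCAC at 8 wk (replicate 2, 4.42). The same held in mock at 4 wk (replicate 1, 4.23) and mock at 6 wk (replicate 1, 4.75). In mock at 8 wk, however, replicate 5 was highest in both (list mean 5.05). In NCAC at 2 wk, replicate 3 was lowest in both (list mean 4.82). In mock at 4 wk, replicates 3 and 5, the lowest in Lrg1, had list means of 4.94 and 5.57. Mt1, a metallothionein gene, had 2060 ± 575 TPM in CAC (SD, n = 7) and 690 ± 64.0 TPM in mock (SD, n = 5), and its slope on Lrg1 was 0.43 (adjusted p = 0.0144), or 0.342 with an adjusted p of 0.222 without CAC at 8 wk replicate 3. The part of these genes in the Lrg1 difference was not tested.

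Of 17 tested endothelial markers, 7 were higher in CAC at 8 wk and 1 was lower, with a median of 0.052. Over all tested symbols, 13.4% were higher and 7.34% lower. Their summed level was 440 to 599 TPM in CAC and 413 to 424 TPM in mock, so the groups did not overlap. Ly6c1 had 92.2 ± 14.9 TPM in CAC (SD, n = 7) and 50.8 ± 3.81 TPM in mock (SD, n = 5), a log2 difference of 0.83 (adjusted p = 1.22e-07), although it has a near-identical copy, Ly6c2. Esam, of endothelial junctions, was 0.27 higher (adjusted p = 0.000525). At 4 wk the sums were 395 to 526 TPM in CAC and 410 to 464 TPM in mock, and these ranges overlapped. Their part in the Lrg1 difference was not tested, and bulk levels do not show which cells held the Lrg1 RNA.

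Of the markers of activated and venular endothelium, 2 of 7 were higher in CAC at 8 wk, beside 13.4% of all tested symbols. Vwf had 14.2 ± 2.93 TPM in CAC (SD, n = 7) and 5.88 ± 1.33 TPM in mock (SD, n = 5), a log2 difference of 1.14 ± 0.148 (SE) with an adjusted p of 4.15e-07. At 6 wk it had 11.6 ± 3.24 TPM in CAC and 5.16 ± 0.445 TPM in mock (adjusted p = 0.000309), and at 4 wk 7.33 ± 2.78 TPM in CAC and 5.12 ± 0.948 TPM in mock (adjusted p = 0.574). Plvap, a component of fenestrae, was 0.23 ± 0.0791 higher at 8 wk (adjusted p = 0.0329), a call that held in 10 of 20 alternative settings. Within groups Vwf was the only 1 of the 7 that rose with Lrg1 in limma and 0 fell, with a median slope of 0.033. At an unadjusted p under 0.05 there were 2, beside 16.7% of all other genes. The mean log2(TPM + 1) of this list was 3.74 in CAC at 8 wk replicate 3, the lowest in Lrg1. In the other CAC libraries of that week it was 3.17 to 3.41.

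Of 16 tested genes of angiogenesis, the process LRG1 is known to promote, 2 were higher and 5 lower in CAC at 8 wk, with a median of -0.121. Over all tested symbols, 13.4% were higher and 7.34% lower. Kdr, the main VEGF receptor, fell to 4.40 ± 1.36 TPM in CAC (SD, n = 7), against 7.53 ± 1.24 TPM in mock (SD, n = 5), a log2 difference of -0.69 ± 0.128 (SE) with an adjusted p of 0.000125. Apln, the ligand apelin, fell to 12.5 ± 1.93 TPM in CAC, against 16.9 ± 2.66 TPM in mock (adjusted p = 0.00241). At 4 wk 0 of 16 passed in limma, with 6 at an unadjusted p under 0.05, beside 7.97% of all other genes.

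Markers of neutrophils, which store LRG1 protein, were low. Of 13 markers, 6 (Ltf, Mmp8, Ly6g, Elane, Mpo and Cxcr2) were under 1 TPM in every library, and 4 were tested. The summed level of the 13 was 7.00 to 19.5 TPM in CAC and 7.95 to 11.2 TPM in mock at 8 wk. The medians were 15.2 TPM in CAC and 8.91 TPM in mock. Their mean log2(TPM + 1) at 8 wk was 0.46 in CAC replicate 1 and 0.69 to 0.98 in the other CAC libraries. In mock it was 0.52 to 0.64. At 4 wk the sums were 7.99 to 13.3 TPM in CAC and 6.92 to 12.1 TPM in mock, with medians of 8.36 and 7.84 TPM. At 8 wk 0 of 4 were higher, beside 13.4% of all tested symbols. Csf3r was lower, by 0.36 on the log2 scale (adjusted p = 0.035, a call that held in 11 of 19 alternative settings). S100a8 had 2.22 ± 1.14 TPM in CAC (SD, n = 7) and 1.02 ± 0.557 TPM in mock (SD, n = 5), with an adjusted p of 0.0504. It passed in 6 of 19 alternatives, and without the filter on low values 3 of the 13 markers were higher. Within groups 0 of 4 followed Lrg1 in limma, and 0 had an unadjusted p under 0.05.

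Alb, which defines hepatocytes, was at most 1.15 TPM in any library, with a median of 0.00 TPM. The 9 hepatocyte markers other than Ttr, which the choroid plexus also makes, summed to 4.11 to 5.57 TPM in CAC at 8 wk and 2.74 to 5.39 TPM in mock at 8 wk. Of the melanocytic markers, Mlana and Tyr were at most 0.307 and 0.0527 TPM. Of the 2 that were tested, Pmel was lower in CAC than in mock at 8 wk, a call that held in 18 of 19 alternative settings. Over all tested symbols, 7.34% were lower. Choroid plexus markers varied from library to library, with sums of 3030 to 8190 TPM in CAC and 3810 to 6510 TPM in mock at 8 wk. With their mean as a covariate, the Lrg1 difference between CAC and mock was 1.26 at 4 wk and 2.54 at 8 wk.

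Of the genes next to Lrg1, 1 differed between CAC and mock by a like amount. Plin5, the adjacent gene, begins 4.41 kb away and had 0.525 ± 0.152 TPM in CAC (SD, n = 7) and 0.429 ± 0.0866 TPM in mock (SD, n = 5) at 8 wk, too low to be tested. Plin4, beginning 12.2 kb away, had 25.5 ± 14.4 TPM in CAC and 2.59 ± 1.79 TPM in mock, a log2 difference of 2.63 ± 0.542 (SE) with an adjusted p of 0.000381. Its CAC libraries ranged from 1.70 to 42.2 TPM and its mock libraries from 1.35 to 5.67 TPM, so the groups overlapped through CAC replicate 3. At 4 wk Plin4 had 12.8 ± 13.4 TPM in CAC and 6.85 ± 5.61 TPM in mock (SD, n = 5 each), with an adjusted p of 0.836. Its slope on Lrg1 within groups was 1.06 ± 0.285 (adjusted p = 0.0301), and 0.728 with an adjusted p of 0.363 without CAC at 8 wk replicate 3.

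The third gene on that side, Hdgfl2 (listed under its older symbol Hdgfrp2), had 86.1 ± 3.8 TPM in CAC (SD, n = 7) and 80.4 ± 5.67 TPM in mock (SD, n = 5), with an adjusted p of 0.111. On the other side, the semaphorin gene Sema6b had 51.6 ± 3.59 TPM in CAC and 51.9 ± 2.06 TPM in mock, a log2 difference of -0.01 ± 0.0425 (SE) with an adjusted p of 0.879. Tnfaip8l1 and Mydgf, a secreted growth factor gene, differed by -0.24 and -0.07, with adjusted p of 0.0654 and 0.331. Of the 5 neighbours that were tested, Plin4 was the 1 that passed, beside 20.8% of all tested symbols.

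**Figure D5:**
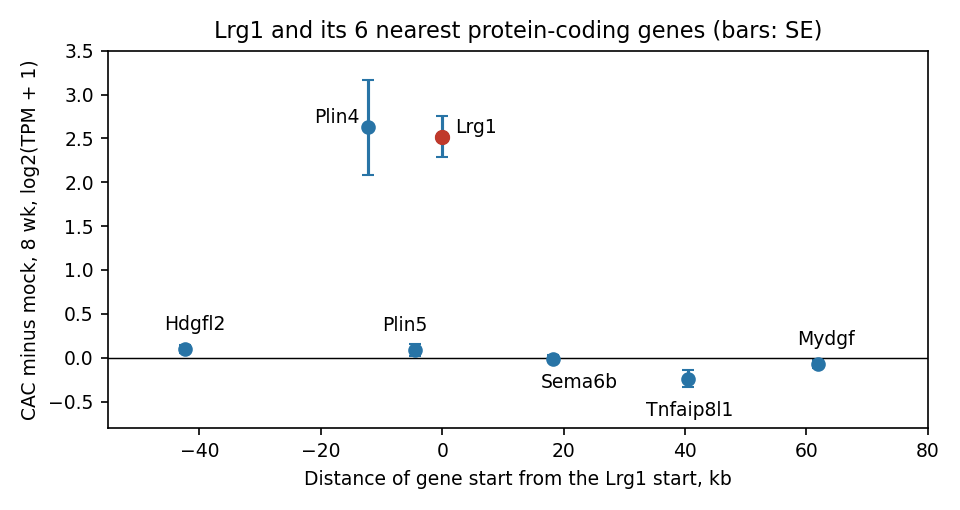
Points give the CAC minus mock difference at 8 wk in log2(TPM + 1), with SE as bars, against the distance of each gene start from the Lrg1 start in kb. Lrg1 (2.52) and Plin4 (2.63) stand apart from the other neighbours, which lie between -0.24 and 0.10, Plin5 among them.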

How the data were processed

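Gene levels are TPM as the authors deposited them, in 1 table with a row per gene symbol; TPM is scaled for gene length and library total. The genome build was mm10, per the submitters' processing notes. No aligner, quantifier or annotation is named (not given in the sources used here). Libraries were prepared with a stranded mRNA kit, per the labels' protocols.

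Levels were analysed as log2(TPM + 1), which understates fold changes of low genes, for the 14399 symbols with a mean of at least 1 TPM. One limma model (version 3.58.1, R 4.3.3) held all 12 groups (trended eBayes, 50 residual degrees of freedom). P-values are two-sided and Benjamini-Hochberg adjusted over all tested symbols within a comparison, with a threshold of 0.05. The fit on Lrg1 within groups had 49 residual degrees of freedom. Both fits were also run on simulated data, with independent noise and the same spread of a gene in every group. That run could not show effects of unequal spread between groups or of single libraries.

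Genes picked by rule were Lrg1, the 6 most and 3 least like it over group means, the 6 with the smallest p within groups, 3 protein-coding neighbours on each side, and from each list the 2 tested genes lowest in p at 8 wk (3 for the receptor and IL-6 lists), plus Eng, Acvrl1, Tgfbr1, Tgfbr2, Il6, Il6st, Stat3 and Socs3. Not all of these are described in the text. Some other list members, such as Alb, Mlana, Tyr, Pcp2 and Gabra6, are named outside the rule to show tissue content. The gene, the lists and the rule were chosen with earlier results of these data known. CAC comparisons with NCAC and with mock share the CAC libraries, and each comparison's own values are given.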

Additional observations from a re-analysis of the deposited data

Results flagged for a closer look

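Values far from the rest of their group were sought in 58 groups of values from 24 genes. These were Lrg1 in all 12 groups, and some of the other named genes in CAC and mock at 8 wk. Such a rule marks about 1 in 20 groups by chance, and it marked 10 here. For Lrg1, CAC at 2 wk replicate 3 was high at 6.64 TPM, with the next library of its group at 2.57 TPM. That library also had the highest level of its group in Vwf, at 7.10 TPM, and in Ch25h, at 2.40 TPM, and the lowest in Gkn3, at 3.24 TPM. Mock at 2 wk replicate 4 was low in Lrg1 at 1.71 TPM, with the next at 2.61 TPM, and mock at 8 wk replicate 5 was high at 2.80 TPM, with the next at 1.90 TPM.

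The same mock library at 8 wk, replicate 5, was high in Vwf at 8.20 TPM (next 5.51) and in Plin4 at 5.67 TPM (next 2.53). CAC at 8 wk replicate 3 was high in Lcn2 at 12.9 TPM (next 5.88), in Gkn3 at 7.70 TPM (next 3.12) and in Fabp7, a glial fatty acid carrier gene, at 77.1 TPM (next 31.3). Mock at 8 wk replicate 4 was low in Heph at 2.26 TPM, and mock at 8 wk replicate 3 was low in Smad9 at 30.5 TPM.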

How the results depend on the processing

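With a pseudocount of 0.1, the Lrg1 difference between CAC and mock at 8 wk was 2.97 and that between NCAC and mock at 2 wk was -0.71, and 132 genes followed Lrg1 within groups. With the compared groups alone in the fit, CAC against mock gave 0, 0 and 1648 symbols at 4, 6 and 8 wk, and CAC against NCAC gave 685 at 8 wk. At 4 wk the count was also 0 with a mean of at least 5 TPM, median-of-ratios scaling, quantile normalization or the choroid plexus covariate, and 3 without a filter. Of 60 same-numbered pairs of libraries, 16 correlated above 0.1, as did 52 of 240 others, with median r of 0.028 and -0.004. These counts do not settle whether replicate numbers pair libraries. A replicate block gave 158 symbols at 6 wk and 1894 at 8 wk for CAC against mock, 682 at 8 wk for CAC against NCAC, and 29 genes within groups. Within groups 2 genes passed with Lrg1 deviations divided by their group's SD and 0 without CAC at 4, 6 and 8 wk, where the slopes of Mt1 (-0.0153) and Plin4 (-0.0701) reversed. The cause of these shifts was not tested.

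Leaving out each library of the compared groups in turn gave Lrg1 differences from CAC to mock of -0.119 to 0.263, 1.13 to 1.52, 1.92 to 2.39 and 2.44 to 2.72 at 2, 4, 6 and 8 wk. From CAC to NCAC they were 0.367 to 0.749, 1.13 to 1.52, 1.77 to 2.23 and 2.26 to 2.53. From NCAC to mock they were -0.577 to -0.4, -0.0982 to 0.107, 0.0833 to 0.205 and 0.135 to 0.275. CAC at 4, 6 and 8 wk against CAC at 2 wk gave 0.577 to 1.02, 1.37 to 1.9 and 2.01 to 2.39. Symbols called in CAC against mock ranged from 0 to 4 at 4 wk, from 20 (without CAC replicate 1) to 527 (without CAC replicate 4) at 6 wk, and from 2120 to 3521 at 8 wk. CAC against NCAC at 8 wk gave 1101 to 2304. Genes following Lrg1 ranged from 7 (without CAC at 8 wk replicate 3) to 585 (without CAC at 2 wk replicate 3), with 101 and 138 without CAC at 4 wk replicates 2 and 5, and 121 and 91 without CAC at 6 wk replicates 1 and 4. NCAC against mock at 8 wk gave 0 throughout in limma, with 1038 symbols at an unadjusted p under 0.05.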

Other observations

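Other leucine-rich repeat proteins gave a mixed picture in CAC against mock at 8 wk: of 21 tested members of a list of 30, 7 were higher and 1 lower, with a median log2 difference of 0.048. Over all tested symbols, 13.4% were higher and 7.34% lower. Omd, an extracellular matrix proteoglycan, had 5.02 ± 0.575 TPM in CAC (SD, n = 7) and 2.39 ± 0.608 TPM in mock (SD, n = 5), with an adjusted p of 0.00181 in limma. Lgi2, a secreted neuronal protein, was 0.42 higher on the log2 scale (adjusted p = 0.000204) and followed Lrg1 within groups with a slope of 0.19 (adjusted p = 0.00842), or 0.145 with an adjusted p of 0.19 without CAC at 8 wk replicate 3. Of the 30, 8 were under 1 TPM in every library. Without CAC replicate 3, 5 members were higher and 1 lower.

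Markers of other cell types passed at 8 wk in both directions, beside 13.4% of all tested symbols higher and 7.34% lower. Of 10 microglial markers, 5 were lower in CAC and 0 higher, among them the transcription factor gene Sall1, which fell to 4.44 ± 1.09 TPM in CAC (SD, n = 7), against 6.88 ± 0.766 TPM in mock (SD, n = 5). The count lower was 2 to 8 over the alternatives, with 2 in a fit of the compared groups alone and 8 without mock replicate 4. The summed level of the 10 was 130 to 163 TPM in CAC, 132 to 152 TPM in NCAC and 144 to 222 TPM in mock at 8 wk, and the mock medians were 142 to 153 TPM at the other weeks and 184 TPM at 8 wk. Of 7 tested monocyte and macrophage markers, 5 were higher and 1 lower, among them Lyve1 with 1.73 ± 0.371 TPM in CAC and 0.811 ± 0.289 TPM in mock. The mock mean of Lyve1 was under the minimum of 1 TPM, so little is read from its call. Ly6c2, also among the higher ones, is the near-identical copy of the endothelial marker Ly6c1 named above. The count higher was 0 with a mean of at least 5 TPM and 3 in 7 other settings, among them a replicate block. The summed level of the 10 listed markers was 35.2 to 49.1 TPM in CAC and 29 to 109 TPM in mock at 8 wk, with a mock median of 37.5 TPM. Of 12 astrocyte and Bergmann glia markers, 2 were higher and 3 lower. Fabp7 fell to 29.2 ± 22.2 TPM in CAC, against 103 ± 17.1 TPM in mock, and fell as Lrg1 rose within groups, with a slope of -0.75 (adjusted p = 0.0123), or -0.609 with an adjusted p of 0.197 without CAC at 8 wk replicate 3. Aqp4, the astrocyte water channel gene, fell to 175 ± 45.4 TPM in CAC, against 254 ± 13.6 TPM in mock. Of 13 cerebellar neuron markers, 2 were higher and 1 lower. Of 9 meningeal and fibroblast markers, 1 was higher and 1 lower. Ptgds, higher, and Lum, lower, each passed in 20 of 20 alternative settings. At 8 wk the 9 summed to 1550 to 2110 TPM in CAC, 1210 to 1740 in NCAC and 880 to 1510 in mock. CAC lay above mock there, whereas at 4 wk CAC (953 to 1720 TPM) and mock (1160 to 1410 TPM) overlapped. The part of these genes in the Lrg1 difference was not tested.

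NCAC at 8 wk replicate 3 had 32.3 TPM of Phyhd1, the gene most like Lrg1 over group means, whereas the other NCAC libraries of that week had 7.55 to 13 TPM. It also had 8.84 TPM of Plin4 and 3.16 TPM of Gkn3, while its Lrg1 level was 2.63 TPM and its Vwf level 4.80 TPM.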
